A study of Mus musculus with 11 samples.

Results

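The genes described here are 10 genes of glucose and pyruvate metabolism, chosen by their function with earlier results of these data known, and found by symbol among the 54146 gene records of the deposited tables, where each matched 1 record. They cover glucose import (*Slc2a1* and *Slc2a3*), glucose phosphorylation (*Hk1* and *Hk2*), glycolysis (*Gpi1* and *Pkm*), the interconversion of pyruvate and lactate (*Ldha* and *Ldhb*), the entry of pyruvate into the citric acid cycle (*Pdha1*) and the transport of pyruvate and lactate across the cell membrane (*Slc16a1*). They were measured by RNA-seq in 11 single mouse embryos of the C57BL/6 strain, collected at the 8-cell stage on embryonic day 2.5. All embryos came from natural matings between Prdm10Δ/+ mice, so every mother carried 1 allele that lacks exon 5 of *Prdm10*, the gene of a zinc finger protein that binds DNA. The 5 mutant embryos (Prdm10Δ/Δ) lacked the exon on both alleles. The 6 control embryos were Prdm10+/+ or Prdm10Δ/+, and the labels do not separate these genotypes. Genotype was read by qRT-PCR of exon 5 in the cDNA of each embryo.

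The embryos were isolated and processed in 2 batches. Batch 1 (16 cycles of PCR pre-amplification) held 3 controls and 2 mutants, and batch 2 (13 cycles) held 3 controls and 3 mutants. Summed expected counts ranged from 3534735 to 8265840 per library, and every pair of libraries of a group differed by more than sampling noise. As a check on the labels, *Prdm10* lay between 11.1 and 24.8 TPM among controls and between 4.88 and 8.16 TPM among mutants, without overlap. Its normalised counts overlapped (124 to 381 in controls, 104 to 202 in mutants), and its effective length ran from 2565 to 5051 bases between embryos. TPM is the number of transcripts per 1000000 after correction for transcript length, so it can be compared between genes. Of 10 embryo and oocyte markers, all were above 1 TPM in every library (*Pou5f1*, a pluripotency factor, at 34.2 to 486 TPM). Of 8 cumulus and granulosa cell markers, which mark the ovarian cells that surround an oocyte, *Foxl2*, *Has2* and *Ptx3* were at 0 throughout, and the summed level of the list was at most 1.11 TPM in controls and 8.33 TPM in mutants.

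Cells take up glucose through facilitative transporters of the GLUT family and trap it by phosphorylation with hexokinases. Glycolysis then yields pyruvate, which is reduced to lactate by lactate dehydrogenase or oxidised in mitochondria by the pyruvate dehydrogenase complex. Mouse embryos before compaction live mainly on pyruvate and lactate from the oviduct fluid and turn to glucose as they approach the blastocyst stage, and the oocyte passes on lactate dehydrogenase rich in the B subunit.

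Whether reads can be assigned to 1 gene was examined first for the lactate dehydrogenase and hexokinase pairs, because the balance between such genes depends on it. The sequences below are the longest stretches that the annotated transcripts of each pair share without a mismatch, and they are shown to let a reader compare them with the read length of 75 bases.
Ldha and Ldhb, 18 bases: ggtggtggacagtgccta
Hk1 and Hk2, 27 bases: agcaatgcctgctacatggaggagatg
Both stretches are shorter than a read, so no read can match both genes of either pair over its whole length. Other records share more. Among windows of 75 bases in the annotated transcripts, 17.8% of those of *Pkm*, 12.6% of those of *Ldhb*, 10.8% of those of *Gpi1* and 10.6% of those of *Pdha1* also occur in another gene record, against 2.69% for *Ldha*, under 1% for *Slc2a1*, *Slc2a3* and *Hk1*, and 0 for *Hk2* and *Slc16a1*. The record sharing most with *Ldhb*, *Gm5514*, reached 3.13 TPM, and the one sharing most with *Pdha1*, its overlapping neighbour *Map3k15*, reached 0.82 TPM. The counting model gave a posterior SD of at most 2.67 reads for any of the 10 genes in any embryo.

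The promoters of *Slc2a1*, *Ldha* and *Ldhb* are shown because *Slc2a1* was the one gene of the 10 that passed the test of mutant against control, and because *Ldha* and *Ldhb* form the pair whose balance is described below. Each is the 250 bases before the RefSeq transcription start (GRCm38.p6), written 5′ to 3′ on the strand of the gene. Capitals mark ACGTG, the core of the hypoxia response element, or CACGT, the same motif on the opposite strand. The motifs overlap where CACGTG is written.
Slc2a1, chr4:119108495-119108744, plus strand: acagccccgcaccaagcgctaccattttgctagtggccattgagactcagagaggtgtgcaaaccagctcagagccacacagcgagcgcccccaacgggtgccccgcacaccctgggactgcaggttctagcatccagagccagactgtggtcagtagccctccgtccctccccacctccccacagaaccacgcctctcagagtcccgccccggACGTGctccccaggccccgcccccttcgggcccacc
Ldha (upstream of 2 annotated starts), chr7:46845554-46845803, plus strand: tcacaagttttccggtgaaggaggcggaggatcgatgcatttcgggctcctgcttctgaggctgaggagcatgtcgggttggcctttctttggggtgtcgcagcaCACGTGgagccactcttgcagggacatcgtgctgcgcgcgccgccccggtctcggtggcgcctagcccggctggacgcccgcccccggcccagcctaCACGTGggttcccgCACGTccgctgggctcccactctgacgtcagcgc
Ldhb, chr6:142507958-142508207, minus strand: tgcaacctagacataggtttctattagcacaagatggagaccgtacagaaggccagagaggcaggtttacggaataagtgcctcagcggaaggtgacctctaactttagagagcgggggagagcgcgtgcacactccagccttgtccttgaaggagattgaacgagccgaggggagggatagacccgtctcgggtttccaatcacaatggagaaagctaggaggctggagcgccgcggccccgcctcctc
The motif occurs once before *Slc2a1* and at 5 positions before the upstream start of *Ldha*, when both strands are counted, and these letters are not in the window of *Ldhb*. Entries were found for 9 of the 10 genes (12 promoters in all), and 5 of these genes (*Slc2a1*, *Hk2*, *Pkm*, *Ldha* and *Slc16a1*) have the motif in at least 1 promoter. Counted by window, it occurs in 5 of these 12 promoters and in 16.6% of all 32851 mouse promoter windows of this length. The same windows were searched for the letters that the study changed in its DNA-binding probe for PRDM10. The probe is shown with those letters in capitals.
PRDM10 probe, 28 bases: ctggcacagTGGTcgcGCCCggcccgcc
The letters TGGTNNNGCCC, on either strand, occur in 1.218% of the 32851 windows and in 0 of the 12 promoters of these genes.

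*Pdha1*, which encodes the E1 alpha subunit of pyruvate dehydrogenase, was far above the other 9 genes in mean TPM. *Slc2a1*, the gene of the glucose transporter GLUT1, had the lowest mean. In order of mean TPM over the 11 embryos, *Pdha1* stood at 199.9 ± 91.8 (SD, n = 11), *Gpi1* at 29.2 ± 9.25, *Ldhb* at 22.3 ± 11.3, *Slc2a3* at 19.3 ± 16.6, *Hk1* at 13.4 ± 8.21, *Hk2* at 7.94 ± 9.29, *Pkm* at 7.57 ± 3.09, *Slc16a1* at 5.93 ± 4.20, *Ldha* at 5.58 ± 4.12 and *Slc2a1* at 1.32 ± 2.00. The order was not the same in both batches. *Slc2a3* averaged 34.04 TPM in batch 1, second to *Pdha1*, and 7.01 TPM in batch 2, below *Hk2* (12.1 TPM) and *Hk1* (7.37 TPM). *Hk2* stood above *Pkm* in the mean but in 4 of 11 embryos. The order, and so the pairs and their direction, came from the same 11 embryos that were then tested. Of the 9 pairs of neighbours in this order, 1 passed the test. *Pdha1* was above *Gpi1* in 11 of 11 embryos, by 2.62 on the log2(TPM + 1) scale (exact permutation test on the paired differences, two-sided, p = 0.000977, the smallest it can give, and 0.00879 after Benjamini-Hochberg adjustment over the 9 pairs). In control replicate 1 *Pdha1* was at 43.0 TPM and *Gpi1* at 35.8 TPM. The other 8 pairs had adjusted p from 0.0527 (*Ldha* over *Slc2a1*, in order in 8 of 11 embryos) to 0.789 in the same exact test. Levels also varied between embryos of 1 group. Among controls of both batches the SD was between 33.2% (*Gpi1*) and 95.6% (*Hk2*) of the mean TPM. For *Pdha1* it was 39.9%, and 15.7% without control replicate 1. These SDs include the difference between the batches, whose control means were, for example, 2.69 and 8.91 TPM for *Hk2*.

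**Figure D1:**
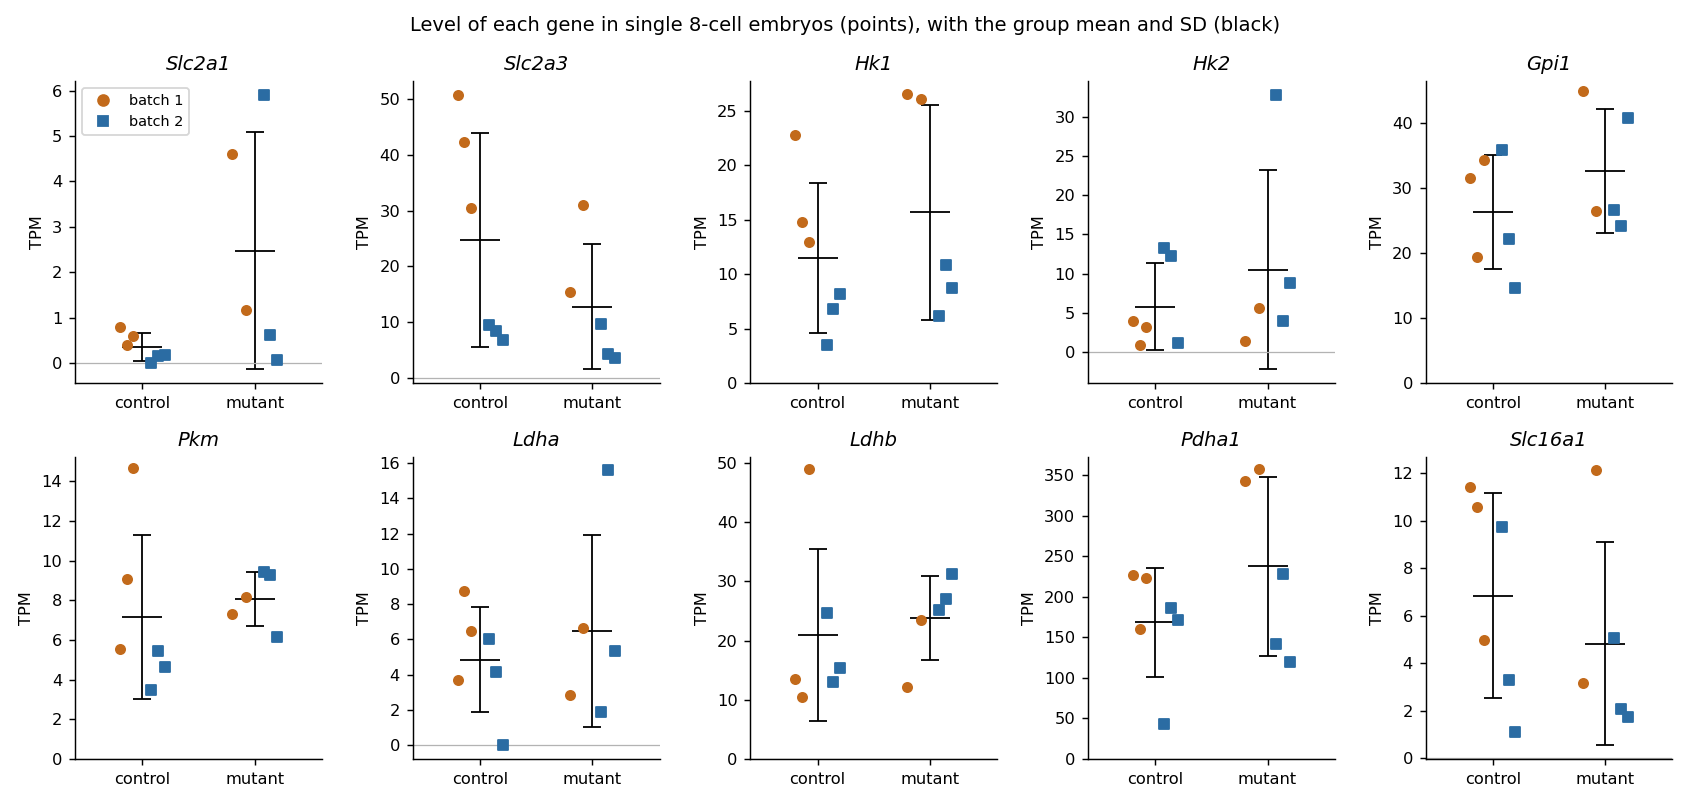
TPM of each of the 10 genes (y axis, each panel on its own linear scale) in control and mutant embryos, with 1 point per embryo, batch 1 as orange circles and batch 2 as blue squares. Black lines give the group mean and SD (n = 6 controls, 5 mutants). *Slc2a3* and *Hk1* separate by batch, and 3 of the 5 mutants lie above every control for *Slc2a1*.

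The comparison of mutant with control asks whether loss of PRDM10 changes these transcripts before the blastocyst forms. All 10 genes had a mean normalised count (baseMean, the count per library after scaling for depth) above 10 and were tested. *Slc2a1* passed this minimum only through the mutants, with a mean normalised count of 4.12 in controls and 30.3 in mutants (baseMean 16.0). *Slc2a1* was called higher in mutants, and 0 genes were called lower, at an adjusted p under 0.05 in the DESeq2 fit with batch as a term. Of all 10448 genes tested, 1.45% were called and 0.565% were called higher. The median log2 fold change of the 10 genes was 0.44, with 8 of 10 above 0, beside a median of -0.0012 and 49.8% above 0 over all genes tested. An unadjusted DESeq2 p under 0.05 was found for 3 of the 10 (*Slc2a1*, *Slc2a3* and *Hk1*), beside 11.9% of all genes tested. The edgeR quasi-likelihood test called 0 of the 10 (0.321% of all genes), with 3 at an unadjusted p under 0.05, a share not counted over all genes. The limma test on log2(TPM + 1) also called 0 (0.21% of all genes), with 2 at an unadjusted p under 0.05, beside 9.95% of all genes tested. The RNA came from whole embryos, so fewer cells that express a gene and less RNA per cell cannot be told apart.

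**Figure D2:**
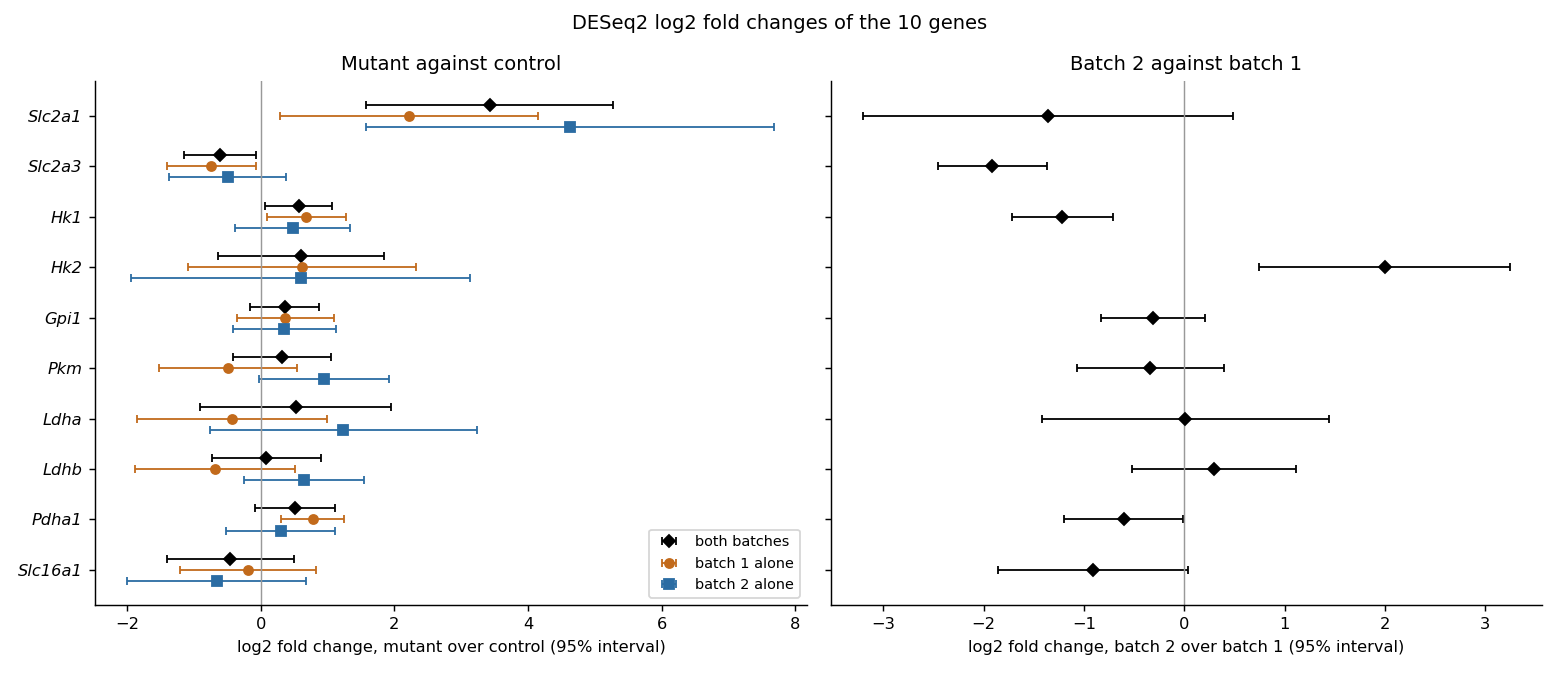
DESeq2 log2 fold changes of the 10 genes (x axis) with 95% intervals. The left panel gives mutant over control in the fit of both batches (black diamonds), batch 1 alone (orange circles) and batch 2 alone (blue squares), and the right panel gives batch 2 over batch 1. *Slc2a1* lies to the right of 0 in all 3 fits on the left, and on the right the intervals of *Slc2a3*, *Hk1*, *Hk2* and, narrowly, *Pdha1* (-1.20 to -0.01) stay clear of 0, of which *Pdha1* did not pass after adjustment (DESeq2 adjusted p = 0.136).

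*Slc2a1*, whose product GLUT1 carries glucose into most cell types, was barely detected in controls and reached higher counts in some mutants. Normalised read counts were 9.02, 5.38 and 6.61 in the controls of batch 1 and 0, 1.74 and 1.94 in those of batch 2. In mutants they were 52.2 and 13.5 in batch 1 and 76.2, 8.38 and 0.98 in batch 2. Mutant replicates 1, 4 and 5 were above every control, mutant replicate 2 was above the controls of its own batch, and mutant replicate 3 lay among them. The count of 0 in control replicate 1 allows up to 0.417 counts per 1000000 at its depth of 7195942 reads. The log2 fold change was 3.43 ± 0.94 (SE), a 10.8-fold difference with a 95% interval of 2.99 to 38.7 (DESeq2 adjusted p = 0.0295). The effective length of *Slc2a1* ran from 2167 to 3186 bases between the embryos with reads, and was 1379 bases in control replicate 1, which had none. As TPM, the 6 controls had a mean of 0.36 ± 0.30 (SD) and the 5 mutants one of 2.47 ± 2.61. The direction was the same in each batch, with log2 fold changes of 2.22 ± 0.99 (SE) in batch 1 and 4.63 ± 1.56 in batch 2 (DESeq2 adjusted p = 0.569 and 0.243 within the batches). The call was lost in edgeR (adjusted p = 0.262) and in limma (adjusted p = 0.403), and without mutant replicate 1 the log2 fold change was 2.17 (DESeq2 adjusted p = 0.267) at a baseMean of 9.73, under the minimum. It was also lost without control replicate 1, 3, 5 or 6 (adjusted p = 0.0979, 0.0614, 0.0628 and 0.0628) and without mutant replicate 4 (adjusted p = 0.129).

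*Slc2a3* encodes GLUT3, a transporter with a high affinity for glucose. Its TPM was 50.8, 42.4 and 30.4 in the controls of batch 1 and 9.51, 8.31 and 6.86 in those of batch 2. In mutants it was 15.4 and 31.1 in batch 1 and 9.60, 4.18 and 3.62 in batch 2. Groups overlapped within both batches, and the lowest embryo of batch 1 was above the highest of batch 2. The log2 fold change of mutant over control was -0.61 ± 0.28 (SE), with a 95% interval of -1.16 to -0.07 and a DESeq2 adjusted p of 0.353. Without mutant replicate 1 it was -0.88, which passed the threshold (adjusted p = 0.0344). *Slc2a3* was then the 1 gene of the 10 that was called.

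*Hk1* and *Hk2* encode the hexokinases that commit glucose to metabolism. *Hk1* was at 22.8, 14.8 and 13.0 TPM in the controls of batch 1, 3.53, 6.80 and 8.18 in those of batch 2, 26.6 and 26.1 in the mutants of batch 1 and 6.15, 10.9 and 8.72 in those of batch 2. Both mutants of batch 1 were above every control, and the mutants of batch 2 overlapped the controls of their batch. Mutants exceeded controls by 0.57 ± 0.26 (SE) on the log2 scale of the fit (95% interval 0.07 to 1.07, DESeq2 adjusted p = 0.341). *Hk2* ranged from 0.88 to 13.3 TPM in controls (median 3.60) and from 1.43 to 32.8 TPM in mutants (median 5.59). The highest value belonged to mutant replicate 1, and without that embryo the log2 fold change of 0.60 ± 0.64 (SE, DESeq2 adjusted p = 0.804) became -0.05. The effective length that the counting model gave *Hk2* ran from 1072 to 2461 bases between embryos, so different transcript forms were assigned to this gene from library to library.

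*Gpi1*, the glucose-6-phosphate isomerase, and *Pkm*, the pyruvate kinase of most tissues, act early and at the last step of glycolysis. *Gpi1* had a mean of 26.3 ± 8.73 TPM (SD) over the 6 controls and 32.7 ± 9.55 TPM over the 5 mutants. Its log2 fold change was 0.36 ± 0.26 (SE), and the 95% interval of -0.16 to 0.88 leaves room for a change in either direction (DESeq2 adjusted p = 0.651). *Pkm* was at 7.15 ± 4.13 TPM in controls and 8.07 ± 1.37 TPM in mutants, with a log2 fold change of 0.32 ± 0.37 (SE, DESeq2 adjusted p = 0.828). Within batches its log2 fold change was -0.49 ± 0.53 in batch 1 and 0.94 ± 0.50 in batch 2. The interaction of batch and group for *Pkm* was 1.44 ± 0.69 on the log2 scale, with an unadjusted p of 0.0366 and a DESeq2 adjusted p of 1.00. None of the 10 genes passed the DESeq2 interaction test, which called 0.0382% of all genes, and *Pkm* was the 1 gene with an unadjusted p under 0.05 (0 genes in edgeR).

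*Ldhb*, the subunit that predominates in heart and oocyte, exceeded *Ldha*, the subunit that predominates in muscle, in 11 of 11 embryos. *Ldhb* ranged from 10.4 to 49.0 TPM in controls (median 14.5) and from 12.2 to 31.2 TPM in mutants (median 25.2). *Ldha* ranged from 0 to 8.73 TPM in controls (median 5.10) and from 1.89 to 15.6 TPM in mutants (median 5.32). No *Ldha* read was counted in control replicate 3, whose depth of 6362573 reads allows up to 0.472 counts per 1000000. *Ldha* made up between 0 and 45.6% of the summed TPM of the pair, with a median of 19.7%. The groups overlapped for both genes, and the log2 fold changes were 0.52 ± 0.73 (SE) for *Ldha* and 0.08 ± 0.42 for *Ldhb* (DESeq2 adjusted p = 0.873 and 0.973). Both were below 0 in batch 1 (-0.43 and -0.68) and above 0 in batch 2 (1.23 and 0.65).

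*Pdha1* was at 227, 161 and 224 TPM in the controls of batch 1 and 43.0, 186 and 171 TPM in those of batch 2. In mutants it was at 342 and 357 TPM in batch 1 and 141, 228 and 119 TPM in batch 2. Control replicate 1 was the lowest of all embryos, and both mutants of batch 1 were above every control. Mutants exceeded controls by 0.51 ± 0.30 (SE) on the log2 scale of the fit (95% interval -0.08 to 1.11, DESeq2 adjusted p = 0.531). *Slc16a1* encodes MCT1, which carries pyruvate and lactate. It ranged from 1.10 to 11.4 TPM in controls and from 1.74 to 12.1 TPM in mutants, and its log2 fold change was -0.46 ± 0.48 (SE, DESeq2 adjusted p = 0.805).

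More genes differed between batches than between genotypes. Of the 10 genes, 3 differed between batches in DESeq2, beside 27.9% of all genes tested, so the share among these genes was near that of the whole table. The same 3 genes were called by edgeR, which called 22.4% of all genes. *Slc2a3* was 3.78 times higher in batch 1 than in batch 2 (batch 2 over batch 1, log2 fold change -1.92 ± 0.28 SE, DESeq2 adjusted p = 4.70e-10), and *Hk1* was 2.33 times higher in batch 1 (-1.22 ± 0.26, adjusted p = 4.39e-05). For both genes the TPM of the 5 embryos of batch 1 and of the 6 of batch 2 did not overlap (15.4 to 50.8 against 3.62 to 9.60 for *Slc2a3*, 13.0 to 26.6 against 3.53 to 10.9 for *Hk1*). The share of all genes that separate by batch in this way was not counted. *Hk2* went the other way, 3.99 times higher in batch 2 (2.00 ± 0.64, adjusted p = 0.0116), but its ranges overlapped (0.88 to 5.59 TPM in batch 1 and 1.17 to 32.8 TPM in batch 2). The call of *Hk2* was lost without mutant replicate 1 (1.47, adjusted p = 0.0885) and without mutant replicate 4 (1.79, adjusted p = 0.0510), and in limma on log2(TPM + 1) (1.32, adjusted p = 0.111). That test called 23.9% of all genes and 3 of the 10, with *Pdha1* in place of *Hk2* (*Pdha1* -0.99, limma adjusted p = 0.0352). Markers of other cells also differed between batches. The summed TPM of 6 oviduct markers was 0 to 0.81 in batch 1, and in batch 2 it was 1.62 to 24.3 in controls and 5.45 to 35.0 in mutants, mostly from *Ovgp1*, the oviduct glycoprotein. The summed TPM of 5 blood markers was 0 to 4.44 in batch 1, and in batch 2 it was 11.9 to 131 in controls and 13.8 to 42.9 in mutants, mostly from the macrophage lysozyme gene *Lyz2*. Of the other blood markers, the alpha-globin gene *Hba-a1* was above 1 TPM in 5 embryos of both batches (highest 8.03 TPM), the leukocyte gene *Ptprc* reached 2.90 TPM, the beta-globin gene *Hbb-bs* reached 0.35 TPM and *Hbb-bt* was at 0. The part of these markers in the batch differences was not tested. Batch, isolation and the number of PCR cycles cannot be told apart.

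The balance within each pair of related genes was compared as the log2 ratio of TPM + 1, mutant minus control within each batch, with an exact permutation test of the embryos within batches (two-sided, 200 arrangements, smallest p = 0.005) and adjustment over the 3 ratios. The ratio of *Ldha* to *Ldhb* had a mean of -1.99 ± 1.29 (SD) over the 6 controls and -1.95 ± 0.89 over the 5 mutants. Its difference of 0.08 did not pass (exact permutation p = 0.915, adjusted p = 0.915), and it was -0.19 in batch 1 and 0.35 in batch 2. The ratio of *Hk1* to *Hk2* averaged 1.12 ± 1.88 in controls and 0.91 ± 2.17 in mutants, a difference within batches of 0.10 (exact permutation p = 0.895, adjusted p = 0.915). This ratio was above 0 in all 5 embryos of batch 1 (1.72 to 3.50) and in 2 of the 6 embryos of batch 2 (-2.24 to 2.08). *Hk1* made up 80.0% to 94.9% of the summed hexokinase 1 and 2 TPM in batch 1, and 15.8% to 87.5% in batch 2.

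The ratio of *Slc2a1* to *Slc2a3* was below 0 in every embryo and higher in mutants. It was -4.86, -4.94 and -4.30 in the controls of batch 1 against -1.55 and -3.89 in its mutants. In batch 2 it was -3.39, -3.00 and -2.75 in controls against -0.62, -1.68 and -2.12 in mutants. Every mutant was above every control of its batch, by 1.98 on average in batch 1 and 1.58 in batch 2, with a mean difference of 1.78 (exact permutation p = 0.005, adjusted p = 0.015). This ratio uses the same *Slc2a1* reads as the fold change above, from genes chosen with earlier results known, and gives no independent support to it. Mutant replicate 3 had 0.06 TPM of *Slc2a1*, and its ratio lay above those of control replicates 2 and 3 of its batch through its lower *Slc2a3* and the added 1 TPM, since its share of *Slc2a1* was 1.63% against 1.89% and 2.42%. *Slc2a1* made up 0 to 2.42% of the summed TPM of the pair in controls. In mutants its share was 38.1%, 23.0%, 12.9%, 3.63% and 1.63%, and the lowest of these lay within the range of the controls.

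**Figure D3:**
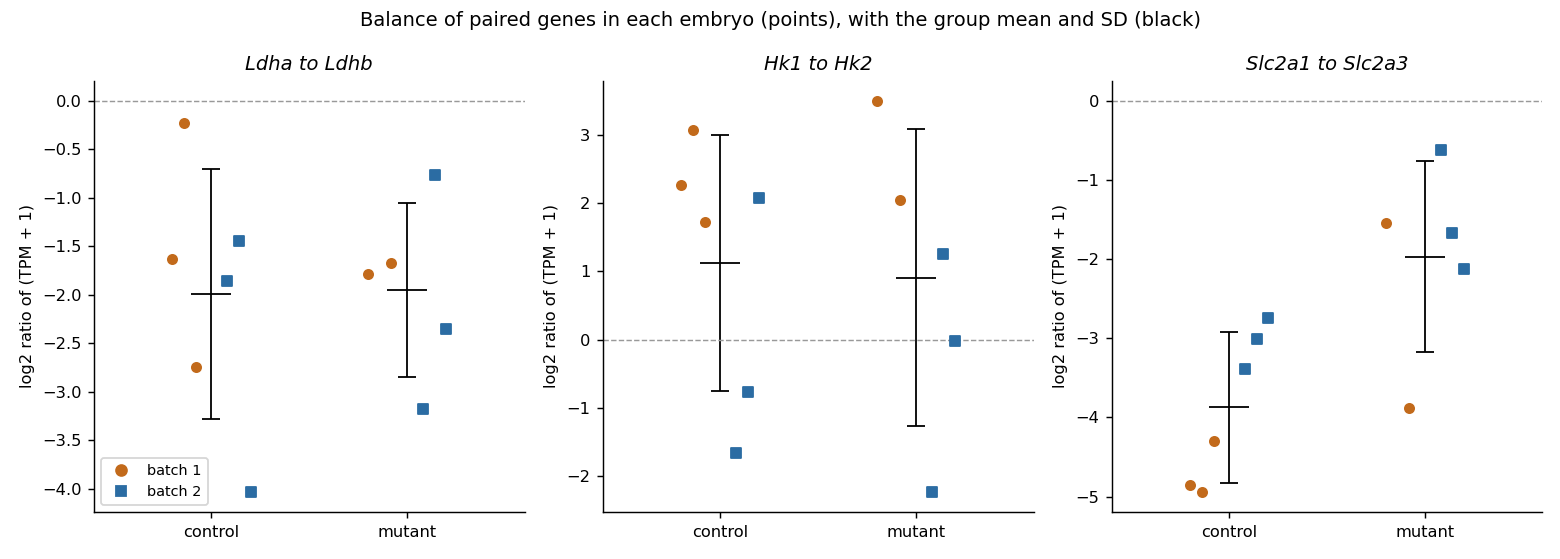
Log2 ratio of TPM + 1 (y axis) for *Ldha* to *Ldhb*, *Hk1* to *Hk2* and *Slc2a1* to *Slc2a3* in each embryo, with batch 1 as orange circles and batch 2 as blue squares. Black lines give the group mean and SD, and the dashed line marks equal levels. *Ldha* to *Ldhb* and *Slc2a1* to *Slc2a3* are below 0 in all 11 embryos, and *Hk1* to *Hk2* is above 0 in all embryos of batch 1.

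The other genes of the pathway were taken from 10 lists with 86 gene symbols, which matched 87 records. The lists were chosen with earlier results of these data known, so the shares below do not test the pathway as a whole. Of these, 61 were tested. *Mdh1* and *Epas1* were higher in mutants and *Dlst* was lower, which is 4.92% of the genes tested beside 1.45% of all genes. The edgeR test called 1 of the 61 (*Dlst*) and limma called 0. An unadjusted p under 0.05 was reached by 17 of the 61 in DESeq2 (27.9%, beside 11.9% of all genes tested) and by 14 in limma (23.0%, beside 9.95%). The median log2 fold change of the 61 genes was 0.18, and 42 were above 0, beside 49.8% of all genes tested. *Dlst*, the E2 subunit of the oxoglutarate dehydrogenase complex in the citric acid cycle, was at 14.8 ± 4.55 TPM in controls and 5.83 ± 3.91 TPM in mutants. The 6 controls had normalised counts of 104, 129, 138, 207, 139 and 112, and the 5 mutants 17.4, 42.7, 20.5, 66.6 and 64.2, without overlap. In TPM 3 of the 5 mutants lay below every control, and mutant replicates 4 and 5 (10.49 and 9.50 TPM) lay above control replicate 1 (9.18 TPM). Its effective length ran from 1501 to 2300 bases between embryos. The log2 fold change was -1.74 ± 0.32 (SE, DESeq2 adjusted p = 3.58e-05, edgeR adjusted p = 0.0385). *Mdh1*, the cytosolic malate dehydrogenase, was at 5.06 ± 1.28 TPM in controls and 11.8 ± 3.96 TPM in mutants, with a log2 fold change of 1.26 ± 0.36 (SE, DESeq2 adjusted p = 0.0437, edgeR adjusted p = 0.246). Normalised counts of *Mdh1* ran from 17.5 to 50.5 among controls and from 47.1 to 130 among mutants, and 1 mutant lay within the range of the controls. *Epas1*, the hypoxia-inducible factor HIF-2 alpha, was at 12.5 ± 5.73 TPM in controls and 26.2 ± 2.37 TPM in mutants. Its normalised counts of 145 to 497 in controls and 581 to 771.5 in mutants did not overlap, and the log2 fold change was 1.08 ± 0.29 (SE, DESeq2 adjusted p = 0.0241, edgeR adjusted p = 0.185). *Dlst* and *Epas1* were named because they passed the test, and the share of all genes that separate like this was not counted. The DESeq2 calls of *Mdh1* and *Epas1* were lost in most of the 11 fits that left out 1 embryo and kept in 3 for *Mdh1* and 5 for *Epas1*. Those fits gave adjusted p from 0.0114 to 0.313 for *Mdh1* and from 0.0039 to 0.125 for *Epas1*, with log2 fold changes from 1.08 to 1.46 and from 0.90 to 1.26.

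Levels along the pathway were uneven. Among the 7 genes of pyruvate carriers, the pyruvate dehydrogenase complex and pyruvate carboxylase, 6 were tested and 0 were called. Their highest gene was the mitochondrial pyruvate carrier *Mpc1*, at 589.7 ± 162 TPM in controls and 604 ± 136 TPM in mutants. Its partner *Mpc2* (322 ± 64.2 and 410 ± 63.4 TPM) and the E1 beta subunit *Pdhb* (360.0 ± 88.4 and 368 ± 52.6 TPM) were also far above the 10 genes other than *Pdha1*. All 18 citric acid cycle genes were tested, with the calls of *Mdh1* and *Dlst* above, and the highest was the mitochondrial malate dehydrogenase *Mdh2* at 456 ± 57.7 TPM in controls. Of 15 other glycolytic enzymes, 10 were tested, 0 were called, and the phosphoglycerate mutase *Pgam1* was highest at 163 ± 39.6 TPM in controls. The 3 phosphofructokinase genes, which encode the main regulated step of glycolysis, averaged 1.05 TPM (*Pfkl*), 0.35 TPM (*Pfkm*) and 0.088 TPM (*Pfkp*) in controls. *Mpc2*, *Pdhb* and these 3 genes were chosen after their values were seen. Among 5 regulators of phosphofructokinase, 4 were tested and 0 were called, with the sugar phosphatase gene *Tigar* highest at 135 ± 19.7 TPM.

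Of 9 other glucose transporters, 1 was tested and it was not called. This was *Slc2a8*, an intracellular transporter, at 23.5 ± 13.7 TPM in controls, and the other 8 averaged under 1 TPM there. Of 4 other hexokinases, 2 were tested and 0 were called, with *Adpgk* highest at 9.76 ± 6.25 TPM. Of 7 other genes of lactate dehydrogenase and monocarboxylate transport, 3 were tested and 0 were called, with basigin (*Bsg*), the chaperone that brings MCT1 to the membrane, highest at 178 ± 32.8 TPM. Of 7 pyruvate dehydrogenase kinases and phosphatases, 4 were tested and 0 were called, with the phosphatase *Pdp2* highest at 78.4 ± 35.8 TPM. All 7 pentose phosphate pathway genes were tested and 0 were called, with transaldolase (*Taldo1*) highest at 223 ± 51.1 TPM. Of 7 regulators of glucose use, 6 were tested, *Epas1* was called, and *Vhl*, which marks hypoxia-inducible factors for degradation, was highest at 96.9 ± 32.3 TPM. Between batches 19 of the 61 genes (31.1%) were called by DESeq2, beside 27.9% of all genes. Of these 19 genes, 14 were lower in batch 2 and 5 were higher. Of the 2911 genes called over the whole table, 1466 were lower in batch 2.

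**Figure D4:**
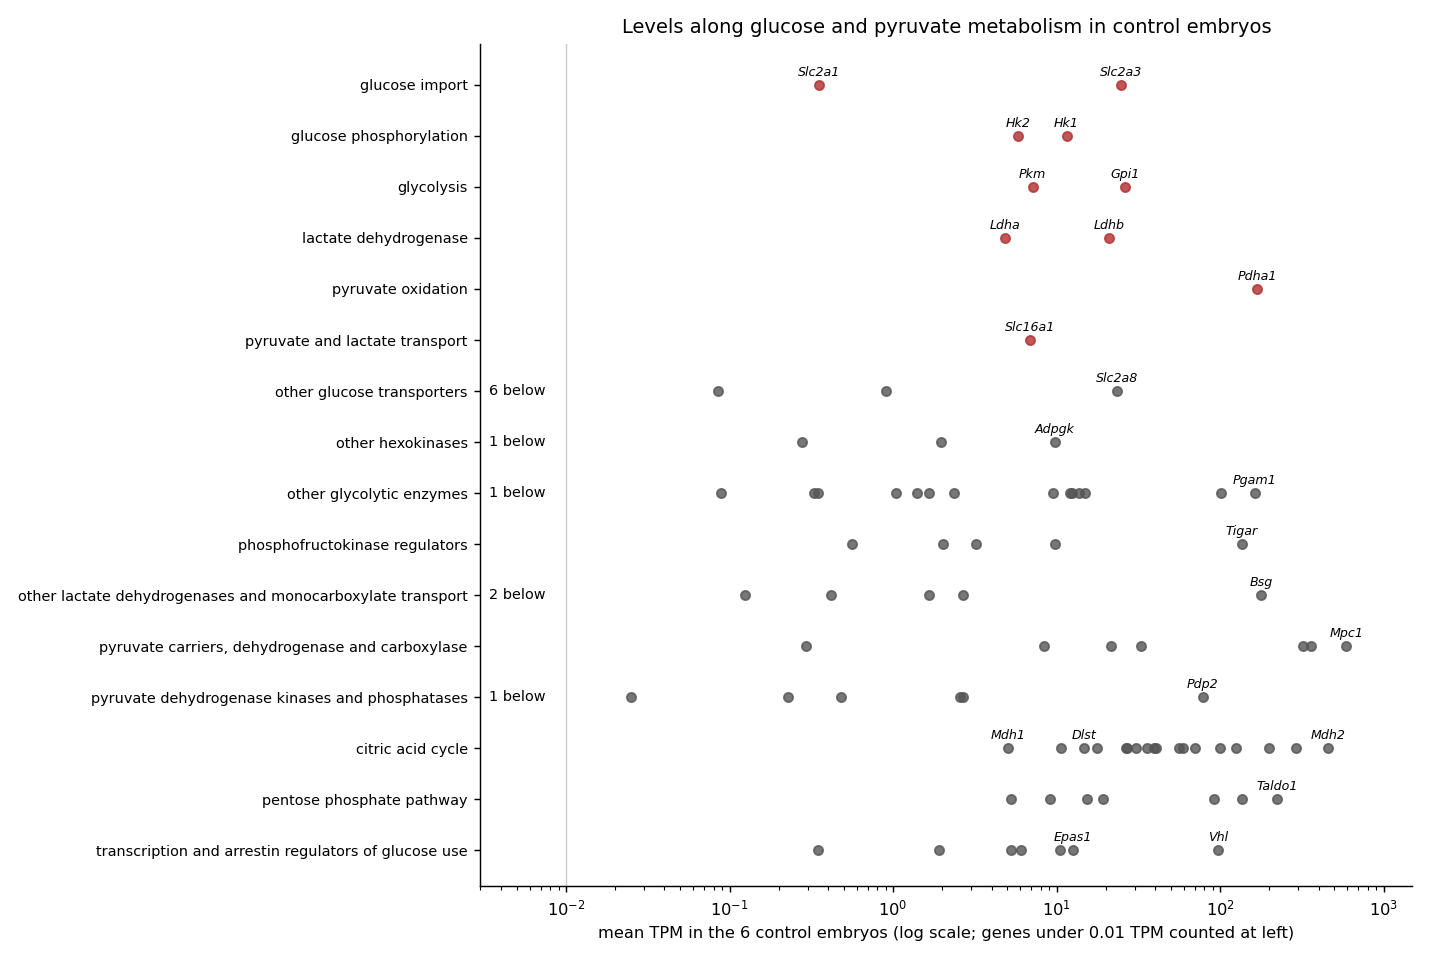
Mean TPM in the 6 control embryos (x axis, log scale) for the 10 genes described, by role (red), and for the other listed genes of the pathway (grey), with 1 point per gene. Genes off the left end of the axis are counted there, and the highest gene of each list and the genes called between mutant and control are named. *Mpc1* (589.7 TPM), *Mdh2* (456 TPM) and *Pdha1* (169 TPM) lie to the right and *Slc2a1* (0.36 TPM) to the left.

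The genes whose pattern was most like that of *Slc2a1* were found by Pearson's r of log2(normalised count + 1), centred within batches, over the 11 embryos and against 10488 other genes with a baseMean above 10. They were *Stat5a* (r = 0.93), *Kat5* (r = 0.92), *Pias3* (r = 0.90), *Washc1* (r = 0.90) and *Zfp747* (r = 0.88). None of these 5 was called between mutant and control in DESeq2, where their adjusted p ran from 0.372 to 0.668. These 5 are the highest of 10488 values of r over 11 embryos, and r was not tested. Values were centred within batches only, so r also holds the difference between mutants and controls. The points share their libraries and depth, and the values of *Slc2a1* rest on few reads in most embryos.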

How the data were processed

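Single-embryo Smart-seq2 libraries of 11 embryos were sequenced as single-end reads of 75 bases. The authors mapped them to GRCm38.p6 with STAR (version 2.6.0c, as in the submitters' processing notes) and quantified genes with RSEM against GENCODE. The deposited tables give expected counts, in which reads shared between genes are divided, TPM scaled by the authors to 1000000 per library, effective lengths, and a posterior SD of each count. No molecular identifiers were used, so counting limits cover counting error only. The authors' deposited comparison table (mean normalised counts, fold changes, standard errors, scores and p-values) was not used here.

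Groups and batches came from the labels, and replicates were numbered in accession order. Whether the embryos came from separate litters is not given in the sources used here. The libraries were not strand-specific as far as the sources used here state. Of 54146 gene IDs, 54079 matched the later GENCODE annotation used for symbols. Expected counts were rounded. Groups were compared with DESeq2 (version 1.42.0, Wald test) in a model of batch plus group, with Benjamini-Hochberg adjustment over all genes, and calls at an adjusted p under 0.05 with a baseMean above 10. Intervals are 95%. Ratios and the order of levels used log2(TPM + 1), a scale that understates changes of low genes, with exact permutation tests. A count of 0 was given the limit of 3 counts. Alternatives were edgeR (version 4.0.16) with TMM factors, limma (version 3.58.1) on log2(TPM + 1) and log2(TPM + 0.1), other scalings, filters and pseudocounts, 1 batch at a time, and the omission of each embryo. The tests were checked on simulated data, where DESeq2 recovered more of the changed genes than edgeR but made a larger share of false calls. That share was well above the nominal level in DESeq2 and slightly above it in edgeR.

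The members and lists were chosen with earlier results of these data known. Genes named by rule were the 10 members, listed genes past the threshold, the highest gene of each list in controls, the 5 genes most like *Slc2a1*, and *Prdm10*. Cell type markers, records that share sequence with members, and genes called in alternative fits were named besides. *Mpc2*, *Pdhb* and the phosphofructokinase genes were added after their values were seen. Sequences are from RefSeq promoter windows, annotated transcripts and the study's probe.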

Additional observations from a re-analysis of the deposited data

Results flagged for a closer look

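In 3 of 32 sets of values, each 1 gene or ratio within controls or mutants, 1 embryo stood apart from the others of its group by Dixon's criterion at 95%, which chance alone reaches in about 1 of 20 sets. *Hk2* was at 32.8 TPM in mutant replicate 1 and at 1.43 to 8.84 TPM in the other 4 mutants. *Ldhb* was at 49.0 TPM in control replicate 6 and at 10.4 to 24.6 TPM in the other 5 controls. *Pdha1* was at 43.0 TPM in control replicate 1 and at 161 to 227 TPM in the other 5 controls, and this library also held the highest *Lyz2* level (121 TPM). No cause was tested.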

How the results depend on the processing

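No paired analysis was possible because the labels give embryos no replicate numbers that groups share. The count of the 10 genes called was 0 in edgeR, in limma with either pseudocount, without the batch term, in batch 1 alone, in batch 2 alone and with a baseMean above 100, and 0 to 1 when single embryos were left out. For *Slc2a1* the log2 fold change kept its direction in all 23 alternatives and its call in 10. Without the call it was 3.31 in edgeR, 1.08 in limma on log2(TPM + 1), 2.04 on log2(TPM + 0.1), 2.86 without the batch term, 2.22 in batch 1, 4.63 in batch 2 and 3.43 under the baseMean minimum of 100, and it ran from 2.17 to 3.98 when single embryos were left out. The count of other pathway genes called was 3 in the fit as reported, 1 in edgeR, without the batch term and in batch 2 alone (*Dlst* in each), 1 in batch 1 alone (*Pdp2*, which was not called in the fit as reported), 1 with a baseMean above 100 (*Epas1*), 4 with the effective-length offset (*Sdha* besides the 3), 0 in both limma fits, and 1 to 3 with single embryos left out, *Dlst* in every one of these.

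Fold changes that did not pass the test changed sign in batch 1 alone for *Pkm* (-0.49), *Ldha* (-0.43) and *Ldhb* (-0.68). With single embryos left out they ran from -0.049 to 0.86 for *Hk2*, -0.17 to 0.88 for *Ldha*, -0.11 to 0.51 for *Ldhb* and -0.93 to 0.12 for *Slc16a1*. The difference in the ratio of *Ldha* to *Ldhb* was -0.053 with a pseudocount of 10 TPM, -0.19 in batch 1 and -0.32 to 0.40 with single embryos left out, and that of *Hk1* to *Hk2* was -0.21 without batch strata, -0.22 in batch 2 and -0.30 to 0.65. None of these ratio differences passed the exact permutation test. The difference in the ratio of *Slc2a1* to *Slc2a3* missed the threshold without batch strata (1.90, exact permutation, adjusted p = 0.0649), in batch 1 (1.98) and in batch 2 (1.58), where 0.3 is the smallest adjusted p possible, and it was 1.19 to 2.36 with single embryos left out (adjusted p = 0.03 to 0.05). It kept its call in 8 of these 11, and missed it without control replicate 4, 5 or 6, where 0.05 is the smallest adjusted p possible. Its size depended on the scale, at 2.77 with a pseudocount of 0.1 TPM, 0.69 with 10 TPM and 2.85 on counts, each with adjusted p = 0.015. Of neighbours in the order of levels, 0 differed in the controls alone or in either batch alone, where fewer embryos entered, and 1 to 2 with single embryos left out. The cause of the other changes was not tested. Counts of 3 genes by batch and 0 genes by interaction stayed within 1.5 times in all 14 alternatives for each, but the 3 genes by batch were not the same in limma, where *Pdha1* took the place of *Hk2*. Few reads limit *Slc2a1* (baseMean 16.0) and *Ldha* (39.2) most.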
